A study of Mus musculus with 6 samples.

Results

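Amino acid carriers of the plasma membrane bring leucine, cystine, arginine, serine, glutamine and glycine into the cell. The 10 carrier genes described here, Slc7a5, Slc3a2, Slc7a11, Slc7a1, Slc7a3, Slc1a4, Slc1a5, Slc38a2, Slc6a9 and Slc38a1, were chosen by name among 52438 mouse genes with values in an RNA-seq table of neural stem cells (NSCs). They were chosen because their values in mutant and wild-type cells were already known, so the differences between the genotypes are given as a description, without a test. All 10 genes were in the table, and all 10 passed a filter on low values (a mean of at least 10 normalized counts over the 6 samples).

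The study compared wild-type (WT) NSCs with NSCs heterozygous for a mutation of Setd5, a gene whose haploinsufficiency causes intellectual disability, to ask how the mutant cells respond to oxygen. Both were primary cortical mouse NSCs grown as adherent cultures on Matrigel at 21% O2, in a medium with glutamine, EGF and bFGF. The Setd5+/- cells had been made with CRISPR-Cas9, and the column names of the table carry 1 clone name, A3, for all 3 mutant samples. The study's methods speak of mutant clones in the plural and its text does not name A3, so the clone is known from the column names alone. RNA of whole cultures was sequenced, and in such bulk samples fewer cells of a type and less RNA per cell cannot be told apart.

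A large group of these carriers is known for its place in the amino acid response. When charged tRNA runs short, or when other stresses activate an eIF2 kinase, phosphorylation of eIF2 lowers general translation and favours the translation of the transcription factor ATF4. ATF4, often with a C/EBP partner, binds an element with the core TGATGNAA near genes of amino acid import and synthesis. Leucine and glutamine that enter through these carriers also feed mTORC1, the kinase complex that couples nutrients to growth.

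The RefSeq promoter windows (250 bases before and 50 after a transcription start, GRCm38.p6) were searched for TGATGNAA on both strands. They include 6 of the 10 genes: Slc1a4, Slc38a2, Slc3a2, Slc6a9, Slc7a1 and Slc7a11. The core was present in 2 of these 6 genes, against 4.51% of 27025 genes and 3.97% of 32851 windows. Both stretches are on the minus strand of the genome and are printed 5′ to 3′ along the gene because they hold the matches, which are in capitals. In Slc7a11 the core occurred on both strands, at 66 and 47 bases before the start of the transcript. In Slc1a4 the match spanned the start itself and lay on the strand opposite to the gene.
Slc7a11, chr3:50443614-50443719: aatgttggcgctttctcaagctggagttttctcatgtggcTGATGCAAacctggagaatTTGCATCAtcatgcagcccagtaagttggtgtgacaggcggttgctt
Slc1a4, chr11:20332710-20332757: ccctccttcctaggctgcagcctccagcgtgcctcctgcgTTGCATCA
A match is a string of letters and not a measured binding site, and no match in a window says nothing of the factor elsewhere in the gene.

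The 6 samples held between 7143309 and 10004948 reads counted on genes. Chi-square over its degrees of freedom was 1.91 to 1.96 for the 6 pairs of samples within a genotype and 63.9 to 64.2 for the 9 pairs between genotypes. The values within a genotype are above the 1 of independent reads, but the variance over the mean hardly changed with the level of a gene: it lay between 1.81 and 1.98 in each of 4 level classes of both genotypes, from means of 10 to 100 reads up to means over 10000. The totals of the 3 samples differed by at most 0.0897%, and the column names give them the same index and lane. They were therefore counted as 1 library per genotype, and n = 1. Genotype, clone, library, index and lane therefore cannot be told apart, and the intervals below are 95% intervals that cover counting error only. Setd5 itself, the targeted gene, had a mean of 2676 normalized counts in WT and 2065 in Setd5+/-, a log2 difference of −0.37 (interval −0.44 to −0.31). Of the markers fixed for NSCs, 7 of 7 were detected in both libraries, among them Nes (2378 in WT and 1951 in Setd5+/-) and Sox2 (3119 and 2732). Genes of chromosome 1 stood higher in Setd5+/- as a whole (median log2 difference 0.54 over 1044 genes), and 0 of the 10 carriers lie there.

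All 10 carrier genes were higher in Setd5+/- than in WT, by 1.84-fold to 27.2-fold. Among all tested genes 48.9% were higher. Of the 10, 9 were at least 2-fold higher, where 10.6% of the 16266 tested genes were, and 0 were at least 2-fold lower, where 6.34% of tested genes were. At 1.5-fold the count was 10 of 10, against 19.9% of tested genes, and 0 were 1.5-fold lower, against 15.8%. The median log2 difference of the 10 genes was 1.62, and that of all tested genes −0.02. Since these values chose the genes, the counts describe the list and do not test it. The genes fell into 4 with differences above 5-fold (Slc7a5, Slc7a11, Slc7a1 and Slc3a2), 5 between 2-fold and 5-fold, and Slc1a5 just under 2-fold.

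**Figure D1:**
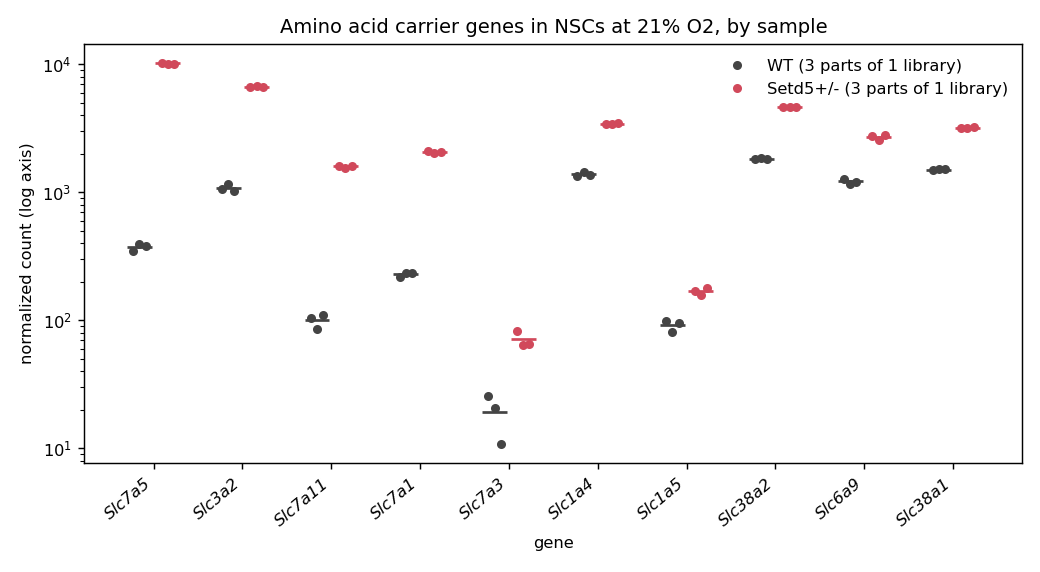
Normalized counts (log axis) of the 10 carrier genes in the 3 WT samples (grey points) and the 3 Setd5+/- samples (red points), with a bar at each mean; the 3 samples of a genotype are parts of 1 library. The gap between the bars is widest for Slc7a5, with means of 373 and 10150.

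Slc7a5 encodes LAT1, the light chain of the main exchanger for leucine and other large neutral amino acids (ENSMUSG00000040010, mm10, chr8:121881150-121907694, minus strand). It showed the largest difference of the 10. The WT samples had 347, 394 and 378 normalized counts, and the Setd5+/- samples had 10220, 10103 and 10127. The samples of a genotype are parts of the same library, so their closeness shows counting error only. The libraries of the genotypes lay far apart. The mean was 27.2-fold higher in the mutant (interval 25.2 to 29.4; log2 difference 4.77, interval 4.66 to 4.88), and Slc7a5 ranked 74th among the 16266 tested genes by its fold. Per kilobase of exon its level went from 100.6 to 2737 normalized counts, from rank 5457 to rank 80 of all tested genes.

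Slc3a2 encodes CD98hc (4F2hc), the glycoprotein heavy chain that carries LAT1 and the other light chains to the cell surface (ENSMUSG00000010095, chr19:8706882-8723369, minus strand). Normalized counts were 1061, 1166 and 1025 in WT and 6584, 6726 and 6697 in Setd5+/-. The mean was 6.15-fold higher in the mutant (interval 5.86 to 6.46, log2 difference 2.62, interval 2.55 to 2.69). This is a smaller difference than that of its partner Slc7a5.

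Of the 6 light chains that pair with Slc3a2 (Slc7a5, Slc7a6, Slc7a7, Slc7a8, Slc7a10 and Slc7a11), the summed level per kilobase of exon was 239 in WT and 2972 in Setd5+/-, 12.4-fold higher. Slc3a2 stood at 307 in WT and 1890 in Setd5+/- on the same scale. The ratio of heavy chain to summed light chains was 1.28 in WT and 0.636 in Setd5+/- by exonic length, and 0.993 and 0.492 by coding length. On both lengths the ratio in the mutant was lower by about the same factor.
The make-up of the light chains also differed. By exonic length Slc7a5 made up 42.0% of their summed level in WT and 92.1% in Setd5+/-. Slc7a6 encodes y+LAT2, a light chain that exchanges cationic for neutral amino acids. Its share was 38.7% in WT and 3.32% in the mutant. By coding length the shares were 37.7% and 82.6% for Slc7a5, and 42.5% and 3.65% for Slc7a6. Which of these genes had the larger share in WT thus depends on the length used. The level of Slc7a6 itself was nearly alike in both, with means of 423 and 452 normalized counts (log2 difference 0.09, interval −0.06 to 0.25). Slc7a10, which encodes the alanine, serine and cysteine exchanger Asc-1, had means of 67.4 and 23.0. Its share was 13.3% and 0.367% by exonic length, and 6.58% and 0.181% by coding length. Slc7a8, which encodes LAT2, was low in both libraries, with means of 16.6 and 11.5 (log2 difference −0.52, interval −1.41 to 0.36).

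**Figure D2:**
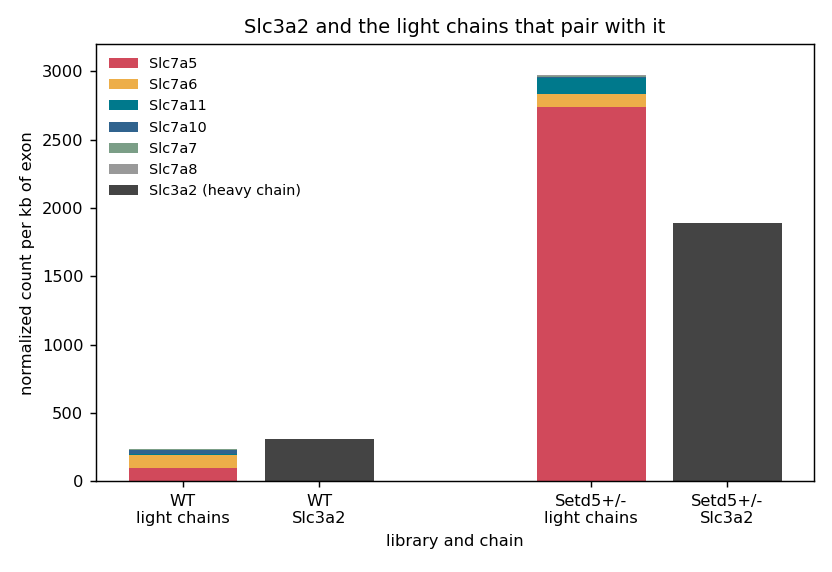
Summed normalized counts per kilobase of exon of the 6 light chains (stacked bars, coloured by gene) and of the heavy chain Slc3a2 (dark bars) in the WT and Setd5+/- libraries. Light chains reach 239 in WT and 2972 in Setd5+/-. By this length 92.1% of the mutant level is Slc7a5, and the dark bar is the taller one only in WT.

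Slc7a11 encodes xCT, the light chain that takes up cystine in exchange for glutamate and so supplies cysteine for glutathione (ENSMUSG00000027737, chr3:49892526-50443614, minus strand). Normalized counts were 104, 85.2 and 109 in WT and 1614, 1545 and 1617 in Setd5+/-. The mutant values lay far above the WT values. Those of a genotype are parts of the same library, so their spread shows counting error only. The mean was 15.97-fold higher (interval 13.7 to 18.6; log2 difference 4.00, interval 3.78 to 4.21), the second largest of the 10. This is also the gene whose promoter window held the core TGATGNAA on both strands. Its share of the summed light chains was 2.99% in WT and 3.85% in Setd5+/- by exonic length, and 10.3% and 13.2% by coding length; the gene has 13.9 kb of exon and 1.51 kb of coding sequence.

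Slc7a1 and Slc7a3 encode CAT1 and CAT3, carriers of arginine and lysine that need no heavy chain. Slc7a1 (ENSMUSG00000041313, chr5:148327410-148399904, minus strand) had 217, 233 and 234 normalized counts in WT and 2094, 2014 and 2062 in Setd5+/-. The mean was 9.01-fold higher in the mutant (interval 8.13 to 9.98; log2 difference 3.17, interval 3.02 to 3.32). Slc7a3 (ENSMUSG00000031297, chrX:101079210-101086020, minus strand) was the lowest of the 10 genes per kilobase of exon. Its values were 25.7, 20.7 and 10.8 in WT and 82.2, 64.3 and 65.5 in Setd5+/-. These values are parts of 1 library per genotype, so their spread shows counting error only. The fold of 3.71 rested on 69 reads in WT and 178 in the mutant, and its interval was the widest of the 10 on the log2 scale (2.52 to 5.46; log2 difference 1.89, interval 1.33 to 2.45).
The related Slc7a2, which encodes CAT2 and was not among the 10, had means of 163 and 434 (log2 difference 1.42, interval 1.22 to 1.62). Summed per kilobase of exon, the cationic carriers Slc7a1, Slc7a2 and Slc7a3 stood at 42.6 in WT and 245 in Setd5+/-, 5.74-fold higher.

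Slc1a4 and Slc1a5 encode ASCT1 and ASCT2, sodium-dependent exchangers of small neutral amino acids, ASCT1 mainly for serine, alanine and threonine and ASCT2 also for glutamine. Slc1a4 (ENSMUSG00000020142, chr11:20302180-20332713, minus strand) had 1344, 1438 and 1373 normalized counts in WT and 3410, 3382 and 3502 in Setd5+/-. The mean was 2.48-fold higher (interval 2.36 to 2.60; log2 difference 1.31, interval 1.24 to 1.38). Its promoter window was the other one with the core TGATGNAA. Slc1a5 (ENSMUSG00000001918, chr7:16781340-16798274, plus strand) was far lower per kilobase of exon, with 98.7, 81.1 and 94.4 in WT and 169, 156 and 179 in Setd5+/-.
Slc1a5 was the one carrier of the 10 under 2-fold, at 1.84-fold, and its interval of 1.505 to 2.25 spanned the limit (log2 difference 0.88, interval 0.59 to 1.17). The gene just inside the limit was Slc38a1, at 2.13-fold. Slc1a4 and Slc1a5 together stood at 375 normalized counts per kilobase of exon in WT and 914 in the mutant.

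Slc38a2 and Slc38a1 encode SNAT2 and SNAT1, sodium-coupled system A carriers of glutamine, alanine and other small neutral amino acids. They lie next to each other on the minus strand of chromosome 15, with 44478 bases between them. Slc38a2 (ENSMUSG00000022462, chr15:96687392-96699730) had 1811, 1845 and 1805 normalized counts in WT and 4655, 4599 and 4632 in Setd5+/-. The mean was 2.54-fold higher (interval 2.44 to 2.65; log2 difference 1.35, interval 1.29 to 1.41). Slc38a1 (ENSMUSG00000023169, chr15:96571418-96642913) had 1481, 1510 and 1509 in WT and 3160, 3177 and 3247 in Setd5+/-.
The mean of Slc38a1 was 2.13-fold higher (interval 2.03 to 2.23; log2 difference 1.09, interval 1.02 to 1.16). The remaining system A gene, Slc38a4, had 0 reads in both libraries. Of the 50-base stretches in the transcripts of Slc38a1, 4.23% also occur in other genes, most of them in 4632432E15Rik, which had 0 reads in both libraries.

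Slc6a9 encodes GlyT1, the sodium- and chloride-coupled glycine carrier (ENSMUSG00000028542, chr4:117834506-117875198, plus strand). It had 1275, 1164 and 1211 normalized counts in WT and 2770, 2541 and 2807 in Setd5+/-. The mean was 2.22-fold higher in the mutant (interval 2.11 to 2.34; log2 difference 1.15, interval 1.08 to 1.23). The value is less certain than its interval says. Slc6a9 shares 1429 exonic bases with Ccdc24 on the opposite strand, 26.3% of its 50-base stretches also occur in other genes, and it is not stated whether the counting used the strand. Ccdc24 had means of 663 and 1185 (log2 difference 0.84, interval 0.73 to 0.95), so reads of the 2 genes cannot be told apart in the shared part. Slc6a5, which encodes the other glycine carrier GlyT2, had 0 reads in both libraries.

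**Figure D3:**
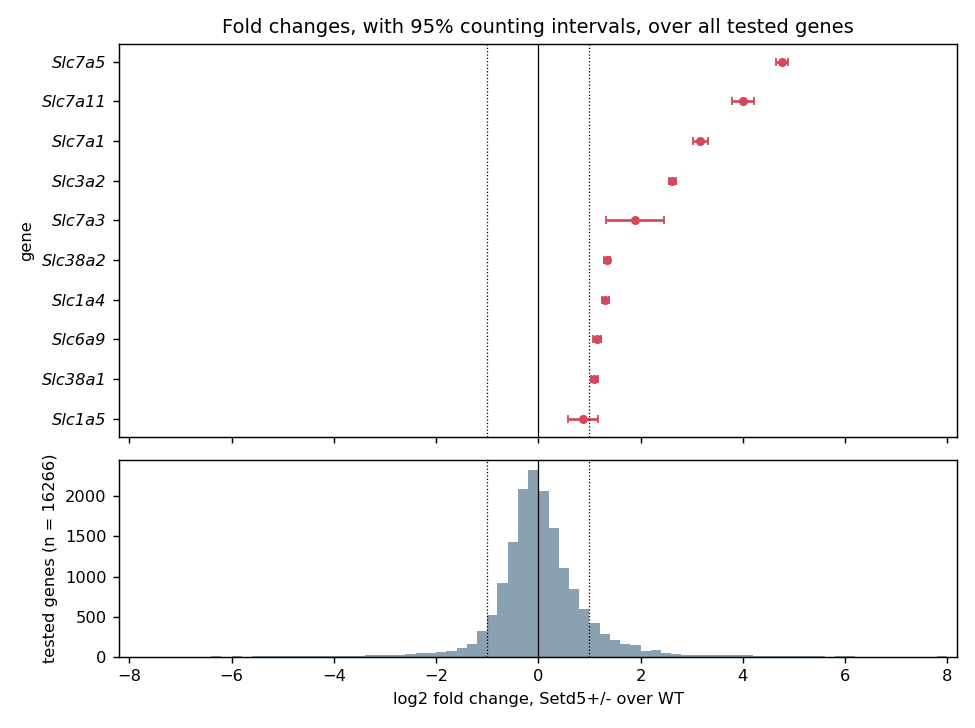
Upper panel, log2 fold change of each carrier gene (Setd5+/- over WT) with its 95% counting interval; lower panel, the number of tested genes in bins of log2 fold change, with values beyond 8 drawn in the outermost bins. Dotted lines mark 2-fold; 9 carriers lie to the right of it, Slc1a5 at 0.88 lies inside, and the bulk of the 16266 genes lies between the lines.

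The order of the 10 fold changes was Slc7a5, Slc7a11, Slc7a1, Slc3a2, Slc7a3, Slc38a2, Slc1a4, Slc6a9, Slc38a1 and Slc1a5. Neighbours in the upper part differed beyond counting error: the log2 difference of Slc7a5 exceeded that of Slc7a11 by 0.77 (interval 0.53 to 1.01), and that of Slc7a11 exceeded that of Slc7a1 by 0.83 (interval 0.56 to 1.09). In the lower part 4 neighbouring pairs did not differ beyond it, namely Slc7a3 with Slc38a2, Slc38a2 with Slc1a4, Slc6a9 with Slc38a1, and Slc38a1 with Slc1a5.

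Levels of different genes were compared per kilobase, first of exon and then of coding sequence. In WT the order was Slc1a4 (353 normalized counts per kilobase), Slc3a2 (307), Slc6a9 (237), Slc38a2 (206), Slc7a5 (100.6), Slc38a1 (87.0), Slc1a5 (21.9), Slc7a1 (19.8), Slc7a11 (7.16) and Slc7a3 (5.03). The pairs Slc1a5 with Slc7a1 and Slc7a11 with Slc7a3 did not differ beyond counting error there. In Setd5+/- the order was Slc7a5 (2737), Slc3a2 (1890), Slc1a4 (874), Slc6a9 (526), Slc38a2 (524), Slc38a1 (185), Slc7a1 (178), Slc7a11 (114), Slc1a5 (40.3) and Slc7a3 (18.7). Here Slc6a9 with Slc38a2 and Slc38a1 with Slc7a1 could not be separated.
By exonic length Slc7a5 thus went from the fifth to the first place, and from 7.48% to 38.6% of the summed level of the 10 genes. That sum was 1344 in WT and 7088 normalized counts per kilobase of exon in Setd5+/-, 5.27-fold higher, and Slc7a5 made up 45.9% of the difference. By coding length the first places in WT were those of Slc38a2 (1204 normalized counts per kilobase) and Slc38a1 (1031). Slc7a5 (243) there also stood behind Slc1a4 (868), Slc3a2 (640) and Slc6a9 (637). Slc7a5 and Slc3a2 again led in Setd5+/- (6608 and 3934), and the sum of the 10 was 4.44-fold higher. The lead of Slc1a4 in WT and the place and shares of Slc7a5 thus depend on the length used.

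The other amino acid carriers, a list of 43 genes, went both ways. Of these, 24 passed the filter and 12 had 0 reads in both libraries. Of the 24, 15 were higher in Setd5+/- and 9 lower, with a median log2 difference of 0.07. At least 2-fold higher were 5, where 10.6% of all tested genes were. At least 2-fold lower were 2, where 6.34% of all tested genes were, and 17 lay between. The 5 higher ones were Slc6a6, Slc6a17, Slc7a2, Slc7a7 and Slc16a10. Slc6a6, the taurine carrier, had means of 192 and 580 (log2 difference 1.60, interval 1.41 to 1.78), and Slc6a17, a carrier of neutral amino acids in synaptic vesicles, had means of 72.9 and 220 (1.60, interval 1.302 to 1.89). Slc7a7 (12.7 and 26.6) and Slc16a10 (7.73 and 16.7) were low in both libraries. Slc16a10 passed the filter only through the mutant and could only count as higher. Without the second Setd5+/- sample the count of carriers at least 2-fold higher fell from 5 to 3.

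Slc1a2, which encodes the glial glutamate carrier GLT-1, had the largest fall of the other carriers that passed the filter. Its means were 4678 in WT and 1225 in Setd5+/- (log2 difference −1.93, interval −2.01 to −1.86). Slc1a3, which encodes the glutamate carrier GLAST, was the highest carrier per kilobase of exon in WT and differed little, with means of 20983 and 21117 (0.01, interval −0.01 to 0.03). Summed per kilobase of exon, the glutamate carriers Slc1a1, Slc1a2 and Slc1a3 stood at 2831 in WT and 2592 in the mutant. Slc43a2, a further leucine carrier (LAT4), had means of 582 and 310 (−0.91, interval −1.07 to −0.75). Slc38a9, the lysosomal arginine sensor that signals to mTORC1, had means of 249 and 328 (0.40, interval 0.21 to 0.59).
Slc43a1, which encodes the related leucine carrier LAT3, had means of 54.4 and 27.4 (−0.99, interval −1.54 to −0.44).

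**Figure D4:**
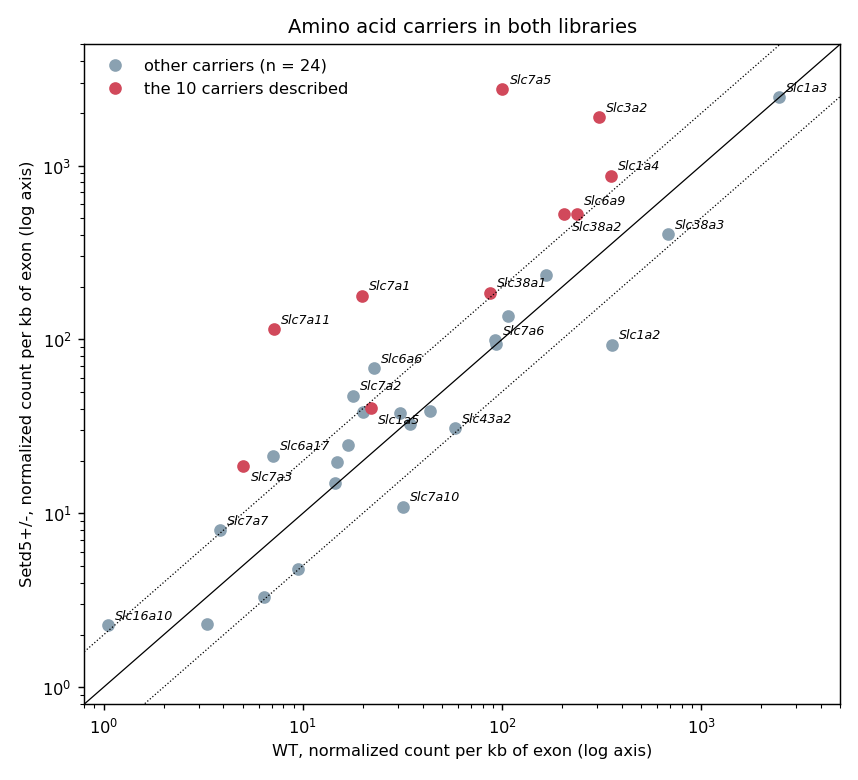
Level of each carrier gene in WT (horizontal, log axis) and in Setd5+/- (vertical, log axis), in normalized counts per kilobase of exon; red points are the 10 carriers described, grey points the 24 other carriers that passed the filter. The solid line marks equal levels and the dotted lines 2-fold; Slc7a5, Slc7a11, Slc7a1 and Slc3a2 lie far above the upper line, Slc1a3 lies on the solid line and Slc1a2 below the lower one.

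Genes of the ATF4 response, a list of 28 without the carriers, stood higher in Setd5+/- as well. Of the 26 that passed the filter, 26 were higher, against 48.9% of tested genes, and 19 at least 2-fold, against 10.6%. Their median log2 difference was 1.80. The filter uses the mean over both genotypes. Atf3, Cebpb, Chac1, Nupr1 and Trib3 had WT means under 10 and passed it only through the mutant. They could therefore only count as higher, and they are included in the 26, the 19 and the median. The intervals of Ppp1r15a (−0.16 to 0.42) and Cbs (−0.0009 to 0.28) included 0. Of the genes under the filter, Gdf15 had means of 3.04 and 0.79, and Fgf21 of 0 and 3.18. Atf4, whose own control is largely at translation, had means of 1372 and 2162 normalized counts (log2 difference 0.66, interval 0.58 to 0.73). Its partner and target Ddit3 (CHOP) had means of 122 and 581 (2.26, interval 2.04 to 2.47). Asns, which encodes asparagine synthetase, had means of 209 and 1293 (2.63, interval 2.47 to 2.79). Chac1, which encodes an enzyme that degrades glutathione, had means of 5.52 and 257 (5.54, interval 4.65 to 6.44).
Trib3, a pseudokinase that restrains ATF4, had the largest log2 difference (9.24, interval 7.26 to 11.2). Its mean went from 1.103, which rests on 4 reads, to 665. The smallest difference was that of Ddit4, a brake on mTORC1, with means of 1131 and 1221 (0.11, interval 0.02 to 0.21). The list was compiled with earlier results of these data known, so its count is a description as well.

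The 4 eIF2 kinases that can start this response all lay within 2-fold, from −0.17 (Eif2ak1, 657 and 586) to 0.07 (Eif2ak2, 317 and 332) on the log2 scale. The values are of transcripts, and kinase activity was not measured here. Genes of NRF2 and glutathione were looked at because Slc7a11 is also a known target of NRF2. Of 14 genes in the list 13 passed the filter, and their median log2 difference was −0.27. Of the 13, 0 were at least 2-fold higher and 0 at least 2-fold lower, against 10.6% and 6.34% of all tested genes. Nfe2l2, which encodes NRF2, had means of 794 and 854 (0.10, interval −0.01 to 0.22). The highest log2 difference of the 13 was that of Gpx4 (0.48, interval −0.06 to 1.03, means of 29.0 and 40.5). The lowest was that of Gss, glutathione synthetase (−0.57, interval −0.82 to −0.31, means of 201 and 136).

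**Figure D5:**
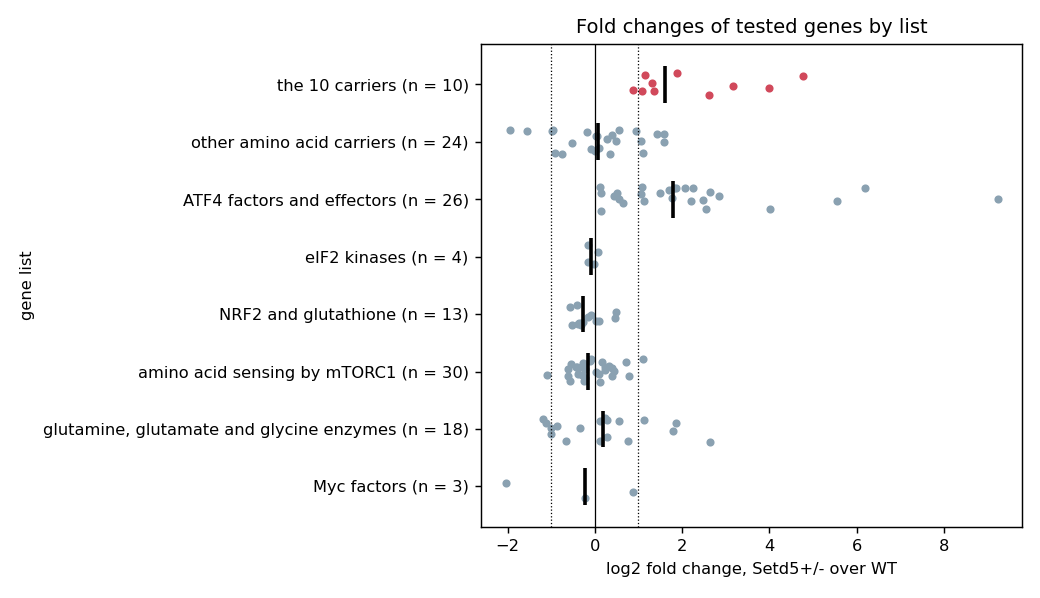
Log2 fold change (Setd5+/- over WT) of each tested gene, by list, with a black bar at the median of each list and dotted lines at 2-fold; vertical scatter within a list has no meaning. The medians are 1.62 for the 10 carriers and 1.80 for the ATF4 list, while those of the other carriers (0.07), the eIF2 kinases (−0.09) and the NRF2 list (−0.27) lie near 0.

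Markers of other neural cell types differed between the 2 libraries beside these genes. Of all tested genes, 10.6% were at least 2-fold higher and 6.34% at least 2-fold lower. Of the 5 astrocyte markers, 3 were at least 2-fold higher in Setd5+/-, namely Gfap (17.1 and 263), Aqp4 (57.7 and 187) and S100b (339 and 737). Aldh1l1 was lower (380 and 147). The summed level of the 5 was 6442 to 6603 normalized counts in the WT samples and 8669 to 8741 in the mutant ones. Most of that sum was Aldoc (5730 and 7371), which was 1.29-fold higher. Of the 6 oligodendrocyte lineage markers, 2 were higher in Setd5+/- and 4 lower. At least 2-fold lower were Sox10 (298 and 1.59) and Mbp (32.3 and 6.35), and 0 were at least 2-fold higher. Sox10 and Mbp had mutant means under 10, passed the filter only through WT and could only count as lower. The sums of the 6 were 40197 to 41063 in the WT samples and 22247 to 23073 in the mutant ones. Most of these sums came from Olig1 (28867 and 15491) and Olig2 (10646 and 6078), both lower by less than 2-fold. Of the 5 neuronal markers, 3 passed the filter, and 2 were at least 2-fold lower, Dcx (248 and 26.2) and Syt1 (64.9 and 5.16). Syt1 passed only through WT and could only count as lower. The sums of the 5 were 367 to 399 in the WT samples and 73.9 to 88.1 in the mutant ones. Of the 7 NSC markers, 3 were higher in Setd5+/- and 4 lower. Only Fabp7 passed 2-fold, and it was lower (36015 and 11490). The largest rise was that of Vim (9095 and 13822). Of the 4 microglial markers, Cx3cr1 and Ptprc were at 0 in both libraries, Aif1 had means of 0.83 and 4.37, and Csf1r had means of 98.0 and 53.6; their sums were 78.6 to 117 and 48.9 to 70.3. The endothelial and mesenchymal lists summed to at most 26.2 in any sample. The part of these markers in the levels of the carriers was not tested.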

How the data were processed

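RNA-seq was done on 3 WT and 3 Setd5+/- NSC samples at 21% O2 (TruSeq RNA v2 libraries). Per the labels and the study's methods, the authors trimmed the reads with Trimmomatic, aligned them to mm10 with Bowtie2 and normalized and compared the genotypes with DESeq2; tool versions, the counting tool and its strand setting are not given in the sources used here. The deposited values are normalized counts (other than raw counts: reads divided by a size factor), in a table whose decimal points had been lost. They were restored so that every value was a whole number of reads times 1 unit per sample: of 26797 genes with a value above 0, 25680 matched the deposited mean without its use, 1117 were set with it, and 0 did not match. The same steps were tested on values with a known answer, of which 100% came back. The deposited columns of the authors' own comparison (fold changes, their errors and p-values) were not used.

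Since the samples of a genotype were counted as parts of 1 library, reads were pooled and log2 ratios of mean normalized counts were computed, with 95% counting intervals widened by the variance over the mean found between samples (1.95 in WT, 1.92 in Setd5+/-). A gene with a mean of at least 10 was called tested, and a difference of at least 2-fold was called. Replicate status came from the data and the column names, and no test between genotypes was made. Exonic and coding lengths and positions came from GENCODE vM21 (GRCm38, which is mm10), and promoter windows from RefSeq. The counting intervals assume that the same widening holds for every gene of a genotype, and they cover counting error only. limma 3.58.1 (R 4.3.3), on log2(normalized count + 1), was run only as an alternative.

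The carriers and all lists were chosen with earlier results of these data known. All 10 carriers are named; of each other list, the gene with the largest rise and the one with the largest fall among tested genes, and a set of genes fixed by name (among them Atf4, Ddit3, Chac1, Trib3, Asns, Nfe2l2, Myc, Mycn, Slc7a6, Slc7a8, Slc43a2, Slc38a9, Slc1a2 and Slc1a3). Slc7a2, Slc7a7, Slc7a10, Slc16a10, Slc38a4, Slc43a1 and Slc6a5 were named after their values were seen, as were the overlapping genes. So were Shmt2, Bcat1, Psat1, Got1, Gcsh, Atf3, Cebpb, Nupr1, Ppp1r15a, Cbs, Gdf15 and Fgf21.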

Additional observations from a re-analysis of the deposited data

How the results depend on the processing

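The log2 differences of all 10 carriers kept their direction and their side of 2-fold in every alternative run (total-read, upper-quartile and chromosome 1-free scaling, a pseudocount of 1, and each sample left out): Slc7a5 ranged from 4.72 to 4.81, Slc7a11 from 3.90 to 4.07, Slc7a3 from 1.61 to 2.17 and Slc1a5 from 0.80 to 0.94. A sample left out removes part of 1 library, so those runs show counting error only and not the spread between cultures. The median of the 10 ranged from 1.47 (without WT replicate 3) to 1.76 (without WT replicate 1). It moves with Slc7a3, one of the genes at the middle of the list.

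Among all genes the counts of 1719 higher and 1032 lower became 3240 and 2565 at 1.5-fold, and 3348 and 2231 without the filter on low values. limma with the samples as replicates compares the reads of 2 libraries, not the genotypes; at an adjusted p under 0.05 it called 4935 genes higher and 5028 lower without and 4934 and 5012 with the replicate number as a block, with all 10 carriers higher in both fits. Same-numbered samples did not deviate together (correlations −0.0135 to −0.008 over 10483 genes), so the numbers do not pair the samples, and the block changed no call of the 10.

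At 1.5-fold the other carriers had 6 lower, the mTORC1 list 3 higher and 3 lower, the glutamine list 6 lower and the Myc factors 1 higher. With a mean of at least 50, the other carriers had 3 higher and 1 lower. Leaving out 1 sample at a time gave 3 to 5 other carriers higher (3 without Setd5+/- replicate 2) and 2 to 4 lower (4 without WT replicate 2 or Setd5+/- replicate 3), and 0 to 1 of the mTORC1 list lower. By coding length the ratio of Slc3a2 to its light chains was 0.993 in WT and 0.492 in Setd5+/-. Beyond these alternatives the cause of these moves was not tested. The other 274 values of counts, medians and ratios under an alternative moved by less than 1.5-fold or by less than their spread. The planned comparison of protein sequences was not run. Depth limits Slc7a3, Slc7a7, Slc16a10 and Trib3, which had few reads in at least 1 library.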

Other observations

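Genes that sense amino acids for mTORC1 lay mostly close to their WT levels. Of 32 genes in the list 30 were found and tested, with a median log2 difference of −0.16. In Setd5+/- 1 was at least 2-fold higher and 1 at least 2-fold lower, against 10.6% and 6.34% of all tested genes. Both of these genes encode subunits of the Rag GTPases, which recruit mTORC1 to the lysosome. Rragd had means of 265 and 573 normalized counts (log2 difference 1.11, interval 0.95 to 1.28). Rragb had means of 307 and 145 (−1.09, interval −1.32 to −0.85). Without the first Setd5+/- sample the lower count was 0.

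Enzymes that make or use glutamine, glutamate and glycine went both ways. Of 18 tested, 4 were at least 2-fold higher (Asns, Shmt2, Bcat1 and Psat1), where 10.6% of all tested genes were. At least 2-fold lower were 3 (Glul, Got1 and Gcsh), where 6.34% of all tested genes were. The median log2 difference of the 18 was 0.18. Asns had the highest log2 difference, 2.63, and is also in the ATF4 list, as are Shmt2 and Psat1. Glul, glutamine synthetase, had the lowest, with means of 2132 and 931 (−1.20, interval −1.29 to −1.10). Among the Myc factors, known to raise Slc7a5 and Slc1a5 in other cells, Myc had means of 919 and 224 (−2.04, interval −2.22 to −1.86), Mycl 318 and 586 (0.88, interval 0.73 to 1.04) and Max 575 and 495 (−0.22). Mycn, under the filter on low values, had means of 0.55 and 11.9.

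2 further motifs were searched in the same promoter windows after the first results had been seen. TGACNNNGC, the core of the antioxidant response element, was in windows of 3 of the 6 genes (Slc6a9, Slc7a1 and Slc38a2), against 14% of all genes. The E-box CACGTG was in 0 of the 6, against 8.09% of all genes. Both strands were searched, and a match is a description only.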
